A study of Mus musculus with 19 samples.

Results

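Dermis, the mesenchymal layer of the skin, was compared with 3 other embryonic tissues to find the transcripts that were highest or lowest in it. It is represented by 4 of the 19 arrays, each hybridized with RNA of dermis pooled from the back skin of C57BL/6 mouse embryos at embryonic day 16 (E16). The other arrays hold 4 samples of the epidermis of the same skin, 6 of urogenital sinus epithelium (UGE) and 5 of urogenital sinus mesenchyme (UGM), all from C57BL/6 embryos of the same age. The labels name no mutation and no agent given to the embryos. The skin layers were parted with dispase overnight in the cold and the urogenital sinus layers with trypsin, so body site and method of separation cannot be told apart. The skin came from the embryos that also gave the urogenital sinus, and pools of different tissues can therefore share embryos. The labels give neither the sex of the embryos nor a batch, and n = 4 dermis pools limits the precision of every difference.

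The dermis of the back forms from the dermomyotome of the somites, which also gives rise to skeletal muscle and to brown fat. By E16 it holds fibroblasts that secrete collagen and proteoglycans, condensations of cells under the hair follicles, blood and lymphatic vessels, nerves, melanocyte precursors and the first resident macrophages and mast cells. The panniculus carnosus, a thin sheet of skeletal muscle, lies under it. In a bulk sample such as these, a change in the number of cells of a type and a change in RNA per cell cannot be told apart.

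Values are log2 of the deposited intensity of a probe set. A gene with several probe sets is represented by the one with the highest mean over the 19 samples. The gap of a gene is the dermis mean minus the highest of the 3 other tissue means, or, for genes low in dermis, the lowest of the other means minus the dermis mean. All 3 pairwise differences were taken from a single limma fit of the 19 samples. A gene was called highest in dermis if it exceeded each of the other tissues, with an adjusted p under 0.01 for the weakest of the 3 comparisons and a gap over 1 (2-fold), and lowest by the same rule in the other direction. Fold changes are those of the gap, and each adjusted p is of the weakest comparison. Detection calls are not used here, and a level near the lower quartile of the arrays (4.70 to 4.92) is not shown to lie above background.

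The label of the samples was first compared with markers of its cells. The fibroblast genes Col1a2 and Dcn, which encode a collagen I chain and the proteoglycan decorin, stood at 14.71 to 14.90 and 13.95 to 14.30 in the 4 dermis samples. Col3a1, Col1a1, Lum and Dpt were abundant as well, the lowest of them at 12.15. The mesenchymal genes Col1a2, Col3a1, Dcn and Pdgfra were abundant in UGM too, and none of them passed the test for highest in dermis. Pdgfra, a growth factor receptor of fibroblasts, was higher in UGM (13.17 to 13.39) than in dermis (11.84 to 12.60). The regulators of urogenital mesenchyme Tcf21 and Hoxd13 stood at 4.41 to 4.76 and 5.37 to 5.81 in dermis, against 12.82 to 12.99 and 12.33 to 12.91 in UGM. Isl1, a further marker, read 6.55 to 7.05 in dermis and 12.29 to 12.94 in UGM. Hoxd13 and Isl1 were also high in UGE (11.83 to 12.19 and 11.05 to 12.16). The marker Foxf1 did not separate the tissues, at 6.55 to 6.64 in dermis and 6.43 to 6.85 in UGM.

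Transcripts of keratinocytes were abundant in the dermis samples too. Krt5, a keratin of the basal epidermal layer, read 13.76, 12.91, 13.19 and 13.27 in the dermis samples, in the order of their replicate numbers, and 13.62 to 14.07 in epidermis and 6.62 to 8.78 in UGM. Lor, which encodes loricrin of the cornified layer, read 14.37, 12.84, 13.15 and 14.01 in dermis and 14.49 to 14.85 in epidermis. Over the 23 measured epidermal differentiation genes the 4 dermis samples had medians of 9.44, 6.87, 7.74 and 8.59, highest in replicate 1 and lowest in replicate 2, against 10.51 to 11.52 in epidermis and 5.33 to 5.53 in UGM. Their summed intensity ran from 34096 to 106402 in dermis and from 133151 to 175041 in epidermis. In the other direction, the median of 19 fibroblast lineage markers was 8.93, 8.69, 8.59 and 6.80 in epidermis replicates 1 to 4, against 10.40 to 10.69 in dermis. UGE replicates 2 and 3, and less so replicate 1, stood apart in the same way. Twist2, a transcription factor of dermal fibroblasts, read 8.68 and 8.88 in replicates 2 and 3. It read 6.72 in UGE replicate 1 and 4.84 to 5.17 in UGE replicates 4 to 6. Tcf21 read 9.40, 9.84 and 9.92 in UGE replicates 1 to 3 and 5.41 to 5.50 in replicates 4 to 6. The Krt5 value of 8.78 was that of UGM replicate 2. Whether these values reflect mixing of the layers, and its part in the results, was not tested. Without dermis replicate 1 the genes highest in dermis numbered 436, without dermis and epidermis replicates 1 together 450, and without UGE replicates 2 and 3 and UGM replicate 2 together 468, against 434 with all samples. UGE replicate 1 was kept when UGE replicates 2 and 3 were left out.

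In all, 434 of 17360 genes tested, or 2.50%, were highest in dermis and 47, or 0.271%, were lowest. The dermis samples of 432 of the 434 genes lay above every sample of the other tissues, a separation that the rule of the call itself favours. The share over all genes is not given here. The median gap was 1.61, and 155 genes had a gap over 2 and 53 a gap over 3. Gaps in the other direction were smaller, with a median of 1.26 and 2 genes over 2. Against the equally weighted mean of the other tissues, 1248 genes (7.19%) were higher in dermis and 588 (3.39%) lower. Over all genes tested the median difference from that mean was 0.02 and the median gap was -0.23. The tissue next below dermis was UGM for 241 of the 434 genes, epidermis for 171 and UGE for 22. With epidermis left out of the rule, 703 genes exceeded UGE and UGM and 351 lay below both.

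**Figure D1:**
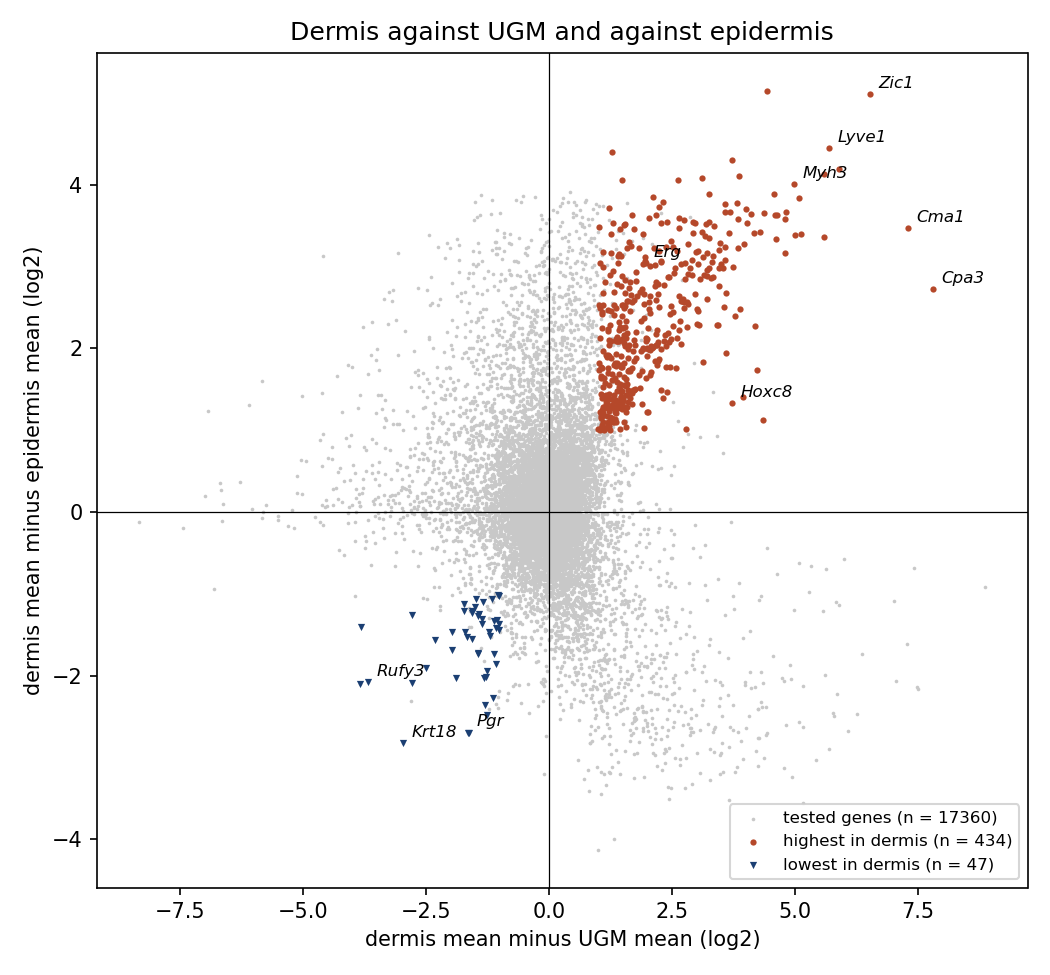
Each point is 1 of the 17360 genes tested, with the dermis mean minus the UGM mean on the x axis and the dermis mean minus the epidermis mean on the y axis, both in log2 units. The 434 genes highest in dermis fill the upper right corner, with Zic1 far along both axes, Cpa3 and Cma1 farther from UGM than from epidermis, and the 47 lowest genes lie nearer to 0.

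Promoters of some of these genes are shown next, for 2 cell types whose lists had a large share of members called, skeletal muscle with 27 of the 434 genes and mast cells with 6. Of the 17360 genes tested, 13800 have an upstream sequence of 250 bases in RefSeq (build GRCm38.p6), and 329 of the 434 genes highest in dermis do. CAGCTG, a form of the E-box to which the muscle regulators of the MyoD family bind, reads the same on both strands and was present in 12.5% of all these sequences. It was present in 63 of 329 genes highest in dermis (19.1%), and among these in 7 of 21 skeletal muscle genes (33.3%), 1 of 5 mast cell genes and 0 of 7 dermal transcription factors. TATAAA, the core of the TATA box, was searched on both strands and found in 8.41% of all, in 14.3% of the genes highest in dermis, and among these in 4 of 21 skeletal muscle genes, 2 of 5 mast cell genes and 3 of 7 dermal transcription factors. AGATAA, a site of the form that GATA factors bind, was also searched on both strands and found in 7.05% of all, in 9.12% of the genes highest in dermis, and among these in 2 of 21 skeletal muscle genes, 2 of 5 mast cell genes and 1 of 7 dermal transcription factors. These matches describe the letters of the windows and were not tested. The last 200 bases before the start of Chrna1, a subunit of the acetylcholine receptor of muscle (chr2:73580339-73580538, minus strand), hold 2 copies of CAGCTG, in capitals, while those of Myog, the gene of the muscle regulator myogenin (chr1:134289804-134290003, plus strand), hold none. Those of Mcpt4, a protease of mast cell granules (chr14:56062311-56062510, minus strand), hold 1 copy of TATAAA, in capitals.
Chrna1: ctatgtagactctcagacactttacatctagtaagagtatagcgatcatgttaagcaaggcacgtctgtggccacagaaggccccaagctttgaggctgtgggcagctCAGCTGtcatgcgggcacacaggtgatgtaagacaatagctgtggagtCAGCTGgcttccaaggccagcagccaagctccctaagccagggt
Myog: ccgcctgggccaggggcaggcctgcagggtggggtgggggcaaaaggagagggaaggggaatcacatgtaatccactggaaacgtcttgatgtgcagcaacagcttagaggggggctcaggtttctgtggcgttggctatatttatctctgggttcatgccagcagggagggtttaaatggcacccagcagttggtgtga
Mcpt4: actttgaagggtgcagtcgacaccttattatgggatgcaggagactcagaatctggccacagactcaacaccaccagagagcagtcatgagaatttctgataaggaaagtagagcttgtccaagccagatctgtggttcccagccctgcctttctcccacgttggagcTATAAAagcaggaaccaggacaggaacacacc

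Transcription factors of the trunk dermis and somites included Zic1, the gene with the largest gap. Of 28 measured members of a list of dermal transcription factors, 8 were highest in dermis and 0 lowest (median gap 0.23). Zic1, a zinc finger transcription factor of the dorsal neural tube and somites, read 9.77, 10.47, 10.60 and 9.76 in dermis replicates 1 to 4, 4.43 to 5.8 in epidermis, and at most 3.87 in any UGE or UGM sample. All 4 dermis samples thus lay far above the rest, and the gap to epidermis was 5.11 ± 0.25 (SE), or 34.5-fold, in the deposited values (adjusted p = 1.904e-10). Zic1 was below the lower quartile of the arrays in UGE, in UGM and in epidermis replicates 1 and 4, so the size of its gap and fold has no base shown to be above background. A second probe set of Zic1 had a gap of 4.59.

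Shox2, a homeobox gene known from limb and heart development, read 10.60, 11.40, 11.38 and 11.02 in dermis, against 6.15 to 7.32 in epidermis and 5.27 to 5.67 in UGM (gap 4.13 ± 0.21, adjusted p = 2.721e-10). Meox2, a homeobox gene of the somites, read 9.56 to 10.18 in dermis and at most 6.59 elsewhere (gap 3.86 ± 0.17). Tbx15, a T-box gene that sets the dorsoventral border of coat colour in the trunk, read 9.11, 9.99, 9.70 and 9.71 in dermis and at most 6.53 elsewhere (gap 3.41 ± 0.16). Each of these genes had its dermis samples above all others. Foxd1, Twist1 and Tbx18 followed with gaps of 2.92, 2.04 and 1.95, and for these 3 genes UGM was the next tissue. En1, a homeobox gene that marks the lineage of the trunk dermis, was called with a gap of 1.10 ± 0.15, but its 4 dermis values of 4.41 to 5.22 lie at the lower quartile of the arrays.

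Twist2 lay above every other sample in all 4 dermis pools (12.42, 12.80, 12.78 and 12.55, against 10.51 to 10.99 in UGM) and yet was not called, with a gap of 1.92 ± 0.71 (adjusted p = 0.1097). The UGE values that spread from 4.84 to 8.88 enter the common error of the fit. Without UGE replicates 2 and 3 and UGM replicate 2 its adjusted p was 0.006164, and with separate fits of dermis and each tissue 0.0009184. Crabp1, which binds retinoic acid in the cells of the dermal condensate, was in the same position, with 12.40 to 13.15 in dermis, 9.63 to 10.21 in UGM and a gap of 2.87 (adjusted p = 0.0107). Cyp26b1, an enzyme that degrades retinoic acid, was the member called of 14 retinoic acid genes (7.14%, against 2.50% of all genes tested). It read 8.89 to 9.37 in dermis and at most 8.30 elsewhere (gap 1.5 ± 0.22).

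Among Hox genes of the trunk, Hoxc5 and Hoxc8 were highest in dermis of 21 measured, and none was lowest (median gap -0.17). That is 9.52% of the list, against 2.50% of all genes tested. Hoxc8 read 9.66, 10.07, 10.06 and 9.68 in dermis, 8.28 to 8.80 in epidermis, 5.58 to 6.57 in UGM and 3.86 to 4.32 in UGE, so that the skin layers lay closest to each other. Hoxc5 was likewise nearest to dermis in epidermis, with 8.54 to 9.5 in dermis, 6.98 to 7.73 in epidermis and lower values in both sinus tissues (gap 1.74 ± 0.23, adjusted p = 2.765e-05). With the mean of a gene's probe sets in place of the brightest, Hoxc8 kept its call and Hoxc5 lost it (gap 0.85). Of 9 posterior Hox genes 5 lay below the mean of the other tissues and 0 above it, and the list's summed intensity was 372 to 432 in dermis and 345 to 407 in epidermis against 6811 to 8984 in UGM. Of 18 visceral mesenchyme regulators 6 lay below that mean and 0 above it. Over all genes tested 3.39% lay below it and 7.19% above it.

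**Figure D2:**
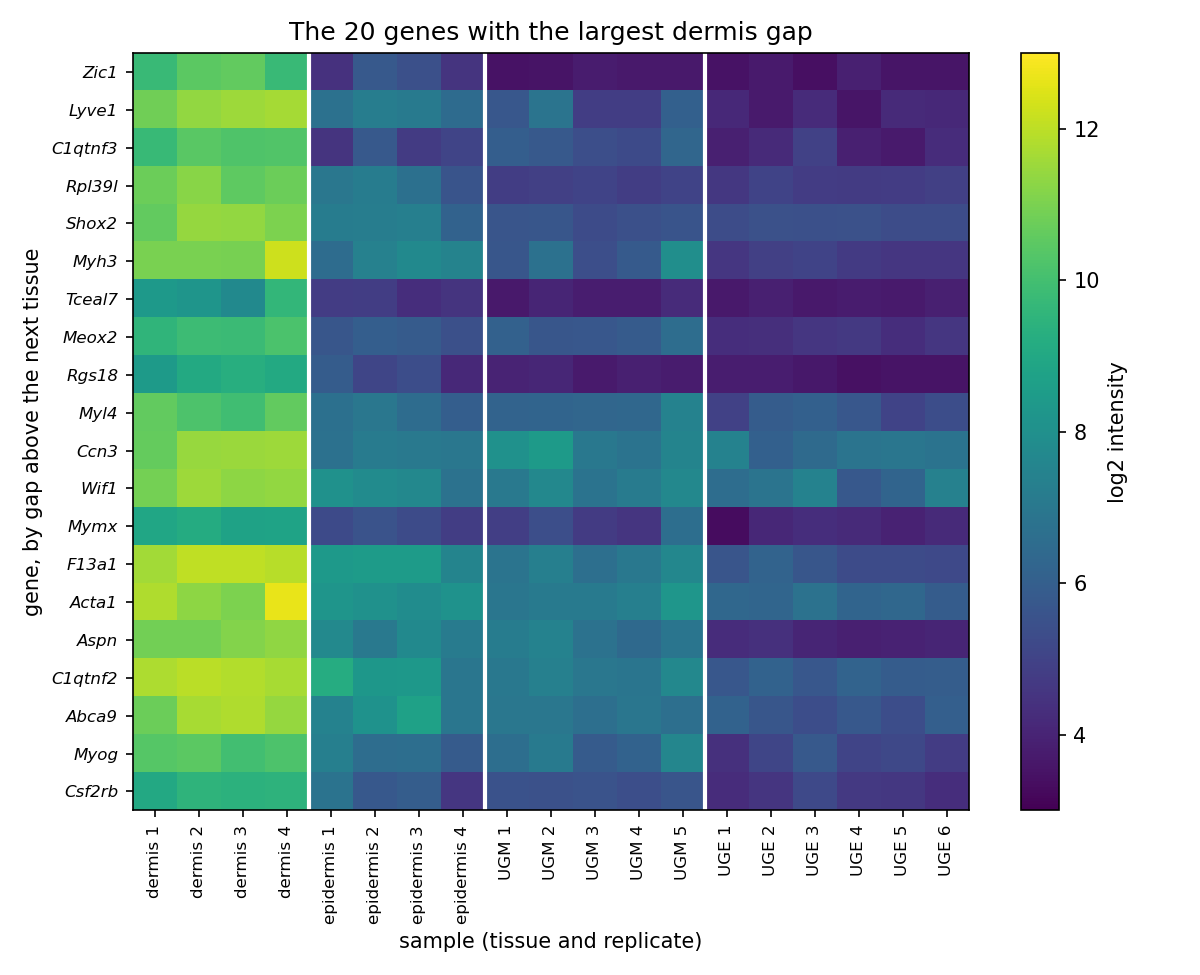
Log2 intensity of the 20 genes with the largest gap (rows, in the order of the gap) in each of the 19 samples (columns, by tissue and replicate). The genes were chosen among those without overlap, so the 4 dermis columns are the brightest in every row. Dermis values run from 7.74 for Tceal7 in dermis replicate 3 to 12.65 for Acta1 in dermis replicate 4.

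Skeletal muscle genes formed the list with the largest share of genes highest in dermis. Of 32 measured contractile and junction genes 21 were highest in dermis (65.6%) and 0 lowest, with a median gap of 2.08. Myh3, the embryonic myosin heavy chain, read 10.97, 11, 10.96 and 12.24 in dermis and 6.55 to 7.73 in epidermis, 5.40 to 7.94 in UGM and 4.58 to 5.03 in UGE. Replicate 4 stood above the other dermis samples and all 4 above every other tissue (gap 4.00 ± 0.42, 16.0-fold, adjusted p = 2.597e-06). Acta1, the skeletal actin, read 11.81, 11.32, 11.04 and 12.65 in dermis and at most 8.26 elsewhere (gap 3.66 ± 0.30). Myl4, an embryonic myosin light chain, read 9.95 to 10.60 in dermis and at most 7.42 elsewhere. A second probe set of Myl4 had a gap of 0.02 and was not called. Myh8, the perinatal myosin heavy chain, Tnni1, a troponin subunit, and Ttn, the giant sarcomere protein titin, had gaps of 3.53, 3.25 and 3.34. Myh8 stood at 4.43 to 5.0 in epidermis, at the lower quartile of the arrays, and lower in UGE and UGM, so the size of its gap has no base shown to be above background.

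Regulators of muscle formation were called as well. Of 14 measured 6 were highest in dermis and 0 lowest (median gap 0.60). Myog read 10.37, 10.49, 9.97 and 10.22 in dermis and at most 7.58 elsewhere, in UGM replicate 5 (gap 3.59 ± 0.33, 12-fold). Myod1, which commits cells to the muscle lineage, read 8.20 to 8.44 in dermis and at most 7.12 elsewhere (gap 1.77 ± 0.23). Mymx and Mymk encode the small membrane proteins that fuse myoblasts, and had gaps of 3.67 ± 0.31 and 1.4 ± 0.15. Pax7, which marks muscle stem cells, stood at 5.26 to 5.65 in dermis with a gap of 0.48 and was not called. Pax3, which also marks melanocyte precursors, was no higher in dermis (6.98 to 7.37) than in epidermis (7.28 to 7.66). The median of the contractile list was 8.31, 8.13, 7.68 and 9.27 in dermis replicates 1 to 4 and at most 6.66 in any other sample, with the largest spread among the lists called most often. Without dermis replicate 4 the contractile genes called numbered 20 and the regulators 5. Whether muscle was dissected with each dermis pool, and how much, was not tested.

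Genes known from mast cells and macrophages were a further set. Of 11 measured mast cell genes 6 were highest in dermis (54.5%) and 0 lowest (median gap 1.35). Cpa3, a carboxypeptidase of the mast cell granule, read 13.08, 13.49, 13.33 and 13.54 in dermis, 9.73 to 11.03 in epidermis, and at most 5.93 in UGM and 5.0 in UGE. The dermis samples were the highest, epidermis came next in all 4 samples, and both sinus tissues were lower than epidermis in every sample. The gap to epidermis was 2.72 ± 0.22 (6.61-fold, adjusted p = 7.126e-08), while the dermis mean was 7.81 above that of UGM. Cma1, the mast cell chymase, followed the same order with 12.99 to 13.35 in dermis, 8.34 to 10.95 in epidermis and 5.71 to 6.07 in UGM (gap 3.47 ± 0.33). Ms4a2, the beta chain of the IgE receptor, read 7.67 to 8.14 in dermis and at most 5.32 elsewhere (gap 2.98 ± 0.13), and the tryptase gene Tpsb2 had a gap of 3.58 ± 0.32. Mcpt4, whose promoter is given above, read 6.22 to 6.52 in dermis and at most 5.30 elsewhere. Hdc, which makes histamine, read 12.45 to 13.17 in dermis but 10.54 to 10.94 in UGM and up to 10.30 in UGE, and was not called (gap 2.10, adjusted p = 0.02159). Kit, the stem cell factor receptor of mast cells and melanocytes, read 10.02 to 10.56 in dermis and 8.94 to 9.89 in UGE. Its gap of 1.08 ± 0.24 was called (adjusted p = 0.005657) and lost the call with the skin pairs as a block (adjusted p = 0.01003).

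The median of the mast cell list, though not its sum, was also above the sinus tissues in epidermis. The median of the list was 7.76, 6.64, 6.81 and 6.15 in epidermis replicates 1 to 4, against 5.35 to 5.93 in UGM and 4.68 to 5.0 in UGE, and replicate 1 was also the epidermis sample with the highest median of fibroblast markers. The summed intensity of the list ran from 27851 to 36583 in dermis, and its range of 2174 to 6812 in epidermis overlapped those of 6038 to 6678 in UGM and 2501 to 4646 in UGE.

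Of 22 measured macrophage genes 13 were highest in dermis (59.1%) and 0 lowest, with a median gap of 1.36. F13a1, a coagulation factor made by tissue macrophages, read 11.60, 12.05, 12.06 and 11.91 in dermis and at most 8.50 elsewhere (gap 3.67 ± 0.24). Mrc1, the mannose receptor, read 11.40 to 11.94 in dermis and at most 8.93 elsewhere (gap 3.25 ± 0.24), and the chemokine gene Pf4 12.08 to 12.29 and at most 9.96 (gap 2.83 ± 0.32). Cd163, a scavenger receptor for haemoglobin, read 5.81 to 6.56 in dermis and at most 4.32 elsewhere, so the other tissues were below the lower quartile. The defining macrophage genes Csf1r and Adgre1 were less apart from UGM. Csf1r, the receptor of the macrophage growth factor, read 11.71 to 11.90 in dermis and 10.53 to 10.95 in UGM (gap 1.11 ± 0.30, adjusted p = 0.02229), and Adgre1, the F4/80 antigen, had a gap of 0.59 (adjusted p = 0.1177). Among genes of blood cells outside the lists, Csf2rb, the shared beta chain of the IL-3 and GM-CSF receptors, read 9.03 to 9.49 in dermis and at most 6.81 elsewhere, and Rgs18, a regulator of G protein signalling in platelets and leukocytes, had a gap of 3.84 ± 0.25. Of 10 erythroid genes Slc4a1, Hbb-bh1 and Gata1 were highest in dermis, and Hbb-bh1, an embryonic globin, read 8.20, 8.25, 8.41 and 7.20 there, lowest in replicate 4.

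Genes of lymphatic and blood vessels were called in part. Of 12 measured lymphatic genes 6 were highest in dermis (4 without dermis replicate 4), and of 24 blood vessel genes 3 were, a difference between the lists that was not tested. The lymphatic genes called include Stab1 and Thy1, and Thy1 is also counted among the fibroblast markers. The vessel genes called were Erg, Sox18 and Fabp4. Sox18 is also counted among the condensate genes and Fabp4 among the adipocyte genes. Lyve1, the hyaluronan receptor of lymphatic endothelium and of some macrophages, read 10.83, 11.38, 11.52 and 11.64 in dermis, 6.49 to 7.25 in epidermis, 4.80 to 6.85 in UGM and 3.56 to 4.22 in UGE (gap 4.45 ± 0.34, 21.8-fold, adjusted p = 4.383e-08). Mmrn1, a secreted protein of lymphatic endothelium and platelets, read 9.07 to 10.08 in dermis and at most 6.87 elsewhere (gap 3.11 ± 0.19). Reln and Flt4, the gene of the VEGF-C receptor, had gaps of 1.91 and 1.08. Prox1, the transcription factor that defines lymphatic endothelium, stood at 4.76 to 5.64 in dermis and 4.58 to 5.66 in UGM, near the lower quartile of the arrays, and had a gap of 0.15. The lymphatic growth factor gene Vegfd, outside the list, had a gap of 3.20 ± 0.20. Among blood vessel genes Erg, an ETS factor of endothelium, read 8.86 to 9.34 in dermis and at most 7.45 elsewhere (gap 1.97 ± 0.18). Cdh5, the cadherin of endothelial junctions, read 9.27 to 10.02 in dermis and 7.98 to 8.85 in UGM and missed the threshold (gap 1.02 ± 0.26, adjusted p = 0.01333). Of these 24 genes 21 lay above the mean of the other tissues, against 7.19% of all genes tested. Their median gap was 0.66. Without UGE replicates 2 and 3 and UGM replicate 2 the number of these genes highest in dermis was 6.

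**Figure D3:**
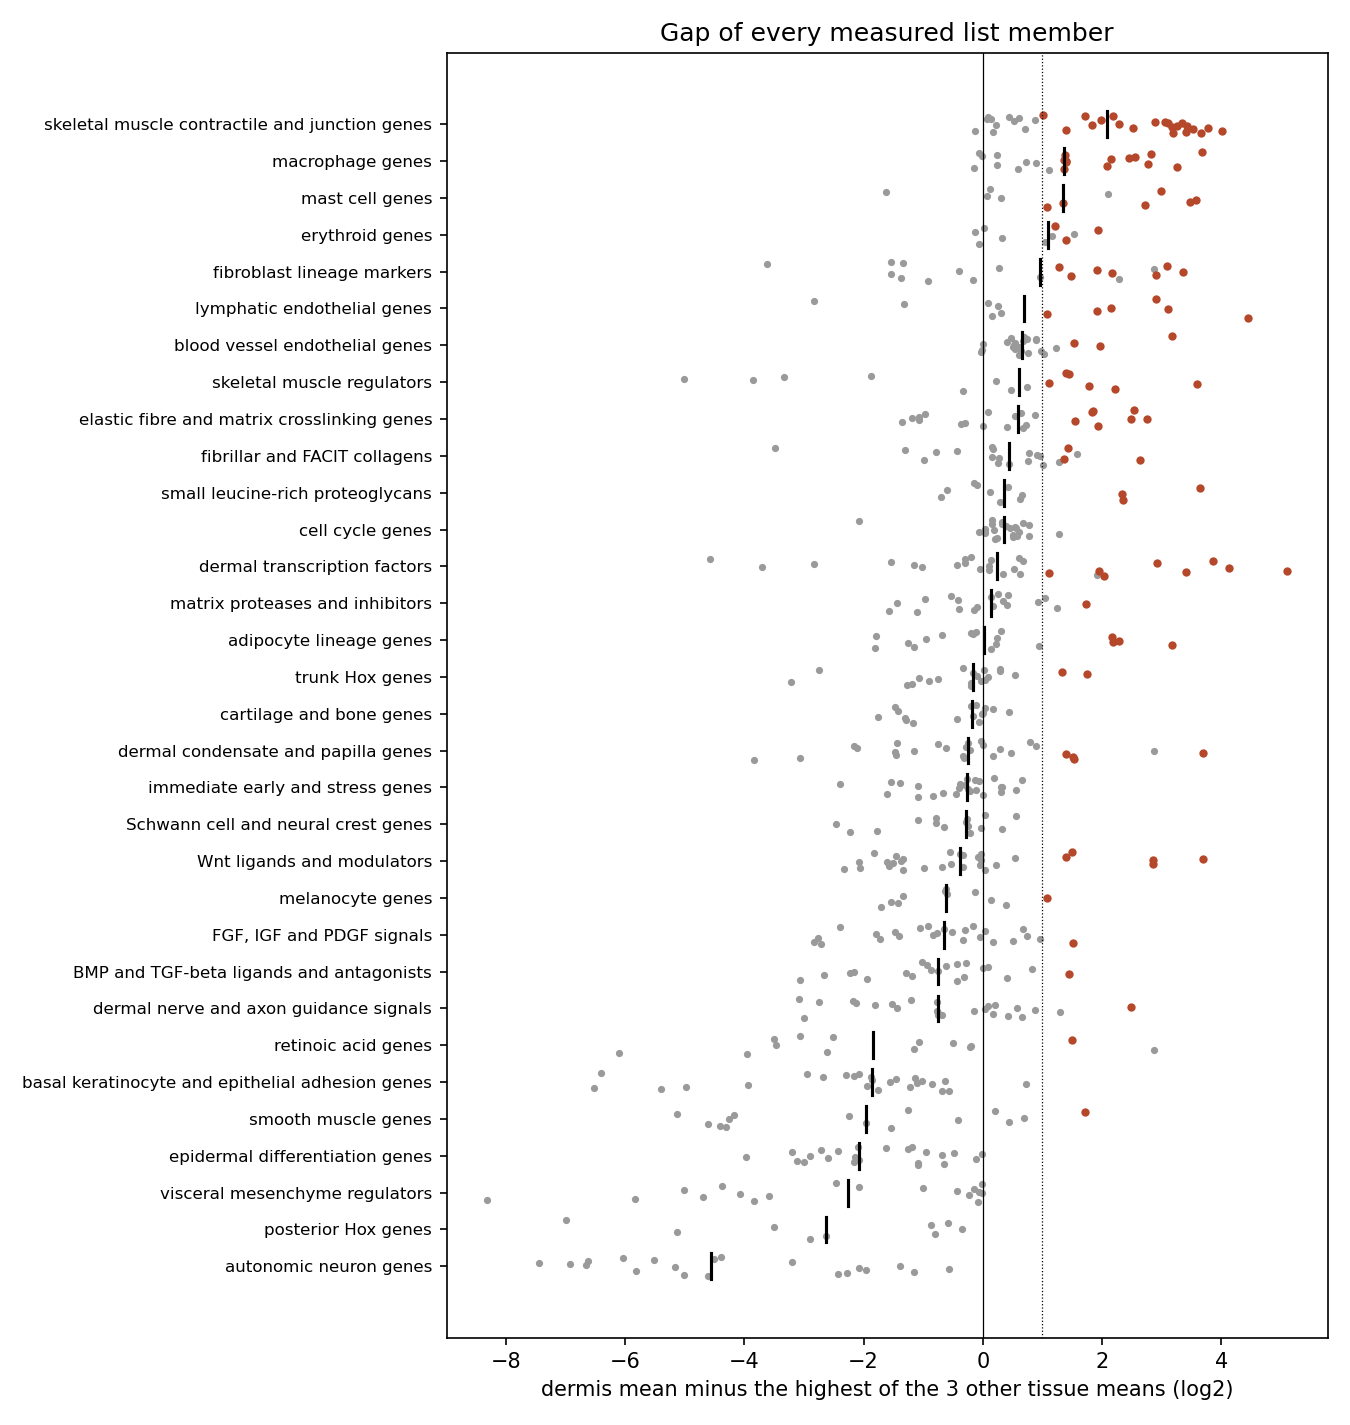
Every measured member of the 32 gene lists, with its gap (dermis mean minus the highest of the 3 other tissue means, log2) on the x axis and 1 row per list in the order of the median gap. Black bars mark medians, the dotted line a gap of 1, and red points the genes called highest in dermis, from 21 of 32 contractile genes at the top to 0 of 20 autonomic neuron genes at the bottom.

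Matrix genes were high in dermis and, for many of them, also in UGM. Of 21 fibrillar and FACIT collagens 15 lay above the mean of the other tissues, but 3 were highest in dermis: Col5a3, Col12a1 and Col24a1. Over all genes tested 7.19% lay above that mean and 2.50% were highest. Col5a3, a chain of collagen V, read 8.16, 8.37, 8.43 and 9.06 in dermis and at most 6.46 elsewhere (gap 2.64 ± 0.20). Col12a1, the FACIT collagen of dense connective tissue, read 10.61 to 11.08 in dermis and 9.34 to 9.83 in UGM, and its call (adjusted p = 0.008017) was lost with the skin pairs as a block (adjusted p = 0.01678). With UGE replicates 2 and 3 and UGM replicate 2 left out, 5 of the collagens were highest in dermis. Summed over the list, intensity ran from 119615 to 151363 in dermis and from 87612 to 94727 in UGM, so that the ranges did not overlap.

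Of 12 small leucine-rich proteoglycans Aspn, Lum and Prelp were highest in dermis. Lum encodes lumican, which binds collagen fibrils, and read 13.21, 13.88, 13.83 and 13.72 in dermis and 10.99 to 11.72 in UGM (gap 2.34 ± 0.24, 5.08-fold). Aspn, asporin, read 10.86 to 11.33 in dermis and at most 7.73 elsewhere (gap 3.64 ± 0.20), and its second probe set had a gap of 3.85. Of 22 elastic fibre and crosslinking genes 7 were highest in dermis, with Emilin2 at a gap of 2.75 ± 0.38, Thbs2 at 2.53 ± 0.24 and Ltbp2 at 2.49 ± 0.16. Adamts12 was the member called of 19 matrix proteases and inhibitors (5.26%, against 2.50% of all genes tested). It read 9.73 to 10.79 in dermis and 8.47 to 8.95 in UGM.

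Of 19 fibroblast lineage markers 7 were highest in dermis, with a median gap of 0.96. Dpt, dermatopontin, read 12.33, 12.67, 12.70 and 12.61 in dermis, 8.35 to 9.79 in epidermis and 6.63 to 7.46 in UGM (gap 3.36 ± 0.25). Ptgfr, a prostaglandin receptor, read 8.25 to 8.70 in dermis and at most 5.66 elsewhere, and Cd34, which marks deep dermal fibroblasts and vessels, had a gap of 1.48. Thy1 read 11.58 to 11.89 in dermis and at most 9.36 elsewhere, but spread from 4.26 to 8.27 in UGE. Its call (gap 2.90 ± 0.62, adjusted p = 0.004111) was lost with the skin pairs as a block (adjusted p = 0.01053). Outside the lists, the secreted C1q and TNF related proteins C1qtnf3 and C1qtnf2 were among the largest gaps. C1qtnf3 read 9.74, 10.43, 10.25 and 10.28 in dermis and at most 6.29 elsewhere (gap 4.42 ± 0.27), and C1qtnf2 read 11.70 to 11.98 with epidermis next at 6.92 to 9.20 (gap 3.63 ± 0.31). Ccn3, a matricellular protein, read 10.65, 11.45, 11.48 and 11.53 in dermis and at most 8.43 elsewhere (gap 3.72 ± 0.30). Rpl39l, a paralog of a ribosomal protein gene, and Abca9, an ABC transporter, had gaps of 4.20 ± 0.24 and 3.63 ± 0.30, and the signal of Rpl39l may include RNA of its relatives.

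Several secreted modulators of Wnt signalling were highest in dermis. Of 31 measured Wnt ligands, modulators and receptors 5 were highest in dermis: Wif1, Sfrp5, Dkk1, Fzd4 and Rspo1. Wif1, which binds Wnt proteins and blocks them, read 10.90, 11.53, 11.30 and 11.36 in dermis and at most 8.04 elsewhere (gap 3.70 ± 0.34, 13-fold, adjusted p = 3.565e-07). Sfrp5 also binds Wnt proteins, and read 9.69 to 10.57 in dermis and at most 8.01 elsewhere (gap 2.85 ± 0.25). Dkk1, which blocks the Lrp coreceptors of Wnt, read 8.61 to 9.13 in dermis and at most 6.47 elsewhere (gap 2.85 ± 0.17). Rspo1, in contrast, is a secreted enhancer of Wnt signalling (gap 1.39 ± 0.25), and Fzd4 is a receptor (gap 1.49 ± 0.18). The ligand gene Wnt5a read 9.05 to 10.11 in dermis and was higher in UGM, at 10.53 to 10.78. The median gap of the list was -0.38, below that of all genes.

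In the list of BMP and TGF-beta genes and in that of FGF, IGF and PDGF genes 1 member each was called (4.76% and 4.00%). In the list of nerve and axon guidance signals 1 was highest and 1 lowest (4.00% each). Over all genes tested 2.50% were highest and 0.271% lowest. In lists of this size 1 gene highest in dermis is thus near the share over all genes. Tgfb1, of 21 BMP and TGF-beta genes, read 7.50, 7.52, 7.50 and 7.23 in dermis and at most 6.32 elsewhere (gap 1.44 ± 0.14). Fgf7, the keratinocyte growth factor and 1 of 25 FGF, IGF and PDGF genes, read 6.94 to 7.96 in dermis and 5.52 to 6.88 in UGM (gap 1.52 ± 0.24). Bmp4 was lower in dermis (9.09 to 9.78) than in UGM (12.23 to 12.72). Of 25 nerve and axon guidance signals Ntn1, the gene of netrin 1, was highest in dermis, at 8.0 to 8.64 against at most 6.27 elsewhere (gap 2.49 ± 0.17), and Ntf5, the gene of neurotrophin 4, was lowest, at 6.49 to 7.33 against 7.36 to 8.59 in epidermis and 9.68 to 10.02 in UGE. Of 27 genes of the dermal condensate and papilla Wif1, Sox18, Fgf7 and Rspo1 were highest in dermis, and Sox2, which marks condensates of a subset of hair types, was far higher in UGE (11.51 to 12.09) than in dermis (7.44 to 8.36).

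Adipocyte genes were called in part. Of 18 measured, Fabp4, Cd36, Lpl and Ebf2 were highest in dermis. Fabp4, a fatty acid carrier of adipocytes and capillaries, read 10.51, 10.56, 10.53 and 11.35 in dermis and 9.31, 7.18, 7.06 and 6.73 in epidermis, and epidermis replicate 1 was nearest to dermis (gap 3.17 ± 0.43). Lpl, lipoprotein lipase, read 10.57 to 11.46 in dermis and at most 9.46 elsewhere. Pparg, the regulator of adipocyte differentiation, read 8.69 to 8.90 in dermis and 7.97 to 9.20 in UGE and was not called. Adipoq, the hormone of mature adipocytes, was near or below the lower quartile in dermis (3.57, 3.77, 3.57 and 4.68) and read 9.63 in epidermis replicate 1 alone, against at most 3.78 in every other sample outside dermis.

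Several cell types of skin were not set apart by the rule. None of 15 Schwann cell and neural crest genes, of 16 cartilage and bone genes, of 24 cell cycle genes and of 25 immediate early and stress genes was highest or lowest in dermis. Over all genes tested 2.50% were highest and 0.271% lowest, so no call in lists of this size is close to those shares. The dermis mean was nevertheless the highest of the 4 tissues for 22 of the 24 cell cycle genes, with a median gap of 0.35. Of all 17360 genes tested, the dermis mean was the highest for 4144. Sox10, of Schwann cells and melanocytes, read 9.29 to 9.55 in dermis and 9.43 to 9.89 in UGM. The melanocyte gene Dct read 9.15 to 9.69 in dermis and 10.32 to 11.51 in epidermis. The smooth muscle list had 5 of 15 genes below the mean of the other tissues, and Casq2, its member highest in dermis, encodes a calcium store protein known from striated muscle. Autonomic neuron genes were low, with 12 of 20 below that mean and a median level of 5.74 to 6.00 in dermis against 10.10 to 10.54 in UGM. Over all genes tested 3.39% lay below that mean.

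**Figure D4:**
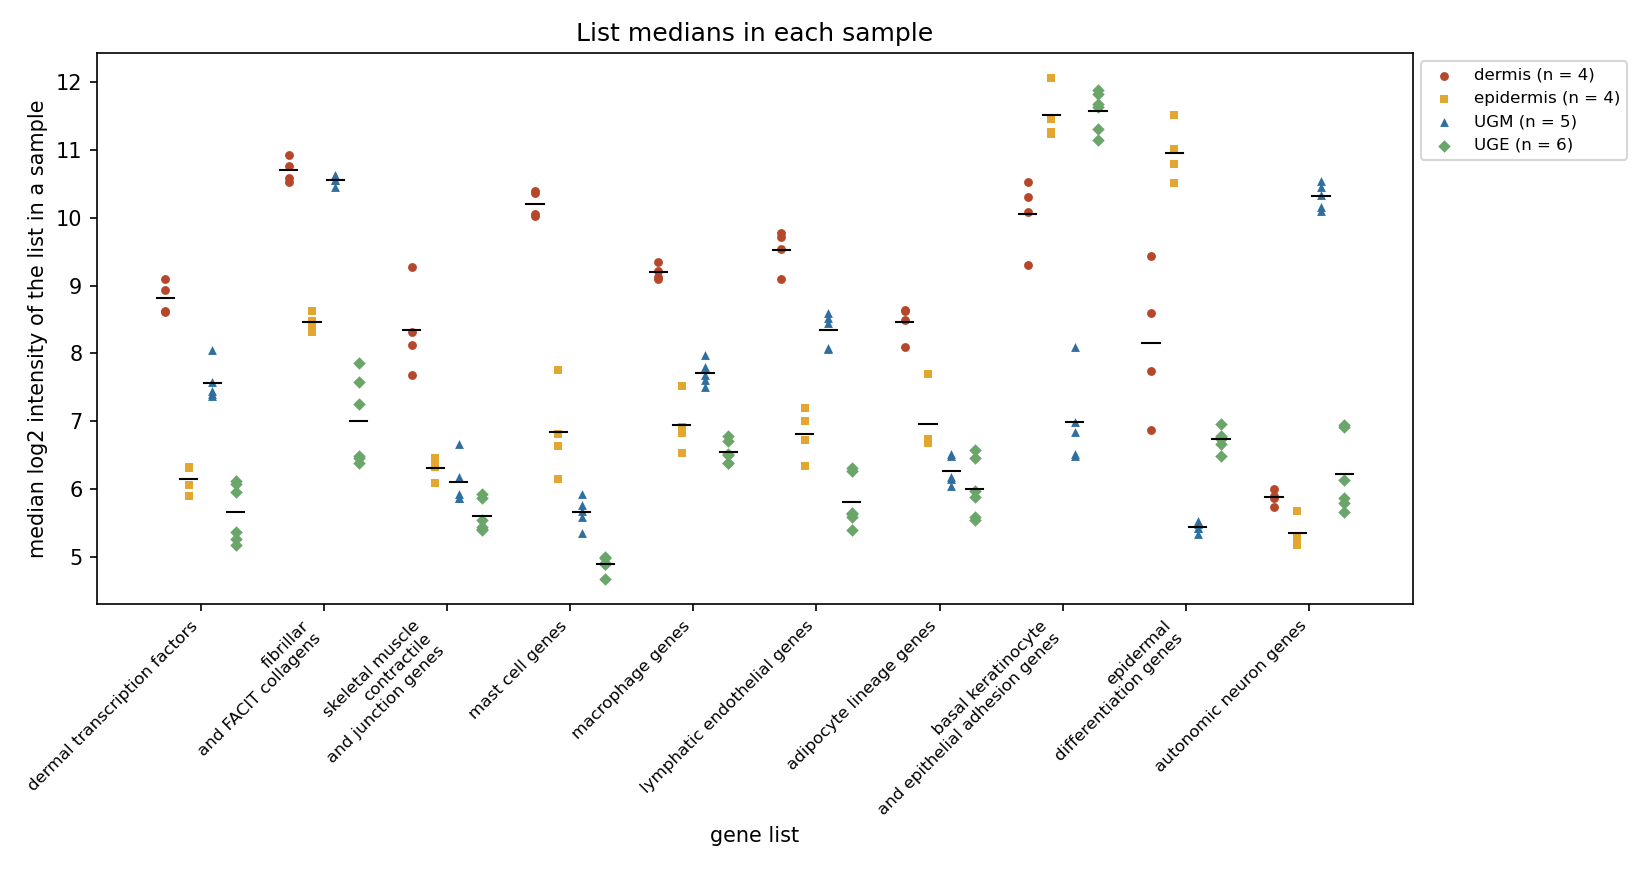
Median log2 intensity of 10 gene lists in each sample (points, by tissue) with the mean of each tissue's samples as a black bar. Mast cell, macrophage, contractile and lymphatic genes are highest in all 4 dermis samples, collagens overlap between dermis and UGM, and epidermal differentiation genes spread from 6.87 to 9.44 in dermis, between UGM and epidermis.

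Few genes were lowest in dermis, and they included genes known from epithelia and from neurons. Krt18, a keratin of simple epithelia, read 6.79, 5.46, 6.96 and 6.04 in dermis, 8.75 to 9.49 in epidermis, 8.81 to 9.80 in UGM and 12.58 to 12.97 in UGE. All 4 dermis samples lay below every other sample, at a gap of 2.83 ± 0.27 (7.11-fold, adjusted p = 6.268e-07). Its partner Krt8 was not called, at 7.91 to 9.21 in dermis, 8.98 to 10.65 in UGM and 10.64 to 11.16 in epidermis (adjusted p = 0.01343). Atp1b1, a subunit of the sodium pump, read 10.37, 9.41, 9.43 and 9.99 in dermis and at least 11.15 elsewhere (gap 1.90 ± 0.23). Bambi, a decoy receptor that dampens TGF-beta and BMP signalling, read 9.22, 8.25, 8.19 and 8.67 in dermis and at least 10.05 elsewhere (gap 1.69 ± 0.19). Cxadr, an adhesion molecule of epithelial junctions, read 7.40 to 7.95 in dermis and at least 8.50 elsewhere (gap 1.56 ± 0.31).

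Pclo, a protein of the presynaptic zone, and Mapt, the gene of tau, are known from neurons and were among the lowest. Of 20 measured autonomic neuron genes 0 were called lowest, and the mean of Pclo was higher in UGE, an epithelium, than in UGM (8.53 and 7.52). Pclo read 5.13, 4.43, 5.17 and 4.25 in dermis, 6.24 to 7.41 in epidermis, 7.35 to 7.69 in UGM and 7.66 to 9.19 in UGE (gap 2.10 ± 0.29), and 2 of the dermis values are below the lower quartile of the arrays. Mapt read 7.07, 5.47, 6.40 and 6.15 in dermis, 7.67 to 8.09 in UGE and 9.44 to 10.88 in UGM (gap 1.64 ± 0.25). Pgr, the progesterone receptor, read 7.17, 5.09, 6.40 and 6.16 in dermis and at least 7.30 elsewhere, with epidermis highest at 8.52 to 9.23 (gap 1.57 ± 0.28). Rufy3, Zfp612, Map9, Ccnt2 and A930013F10Rik complete the 12 genes with the largest gaps below, at 1.52 to 1.72. The calls of Map9 and A930013F10Rik were lost with the replicate number as a block over all 4 groups (adjusted p = 0.01621 and 0.03315), and that of A930013F10Rik also with the skin pairs alone as a block (adjusted p = 0.01248). In the list of 25 basal keratinocyte genes Krt18 was the member called lowest, and 9 members lay above the mean of the other tissues. Over all genes tested 0.271% were lowest and 7.19% lay above that mean.

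**Figure D5:**
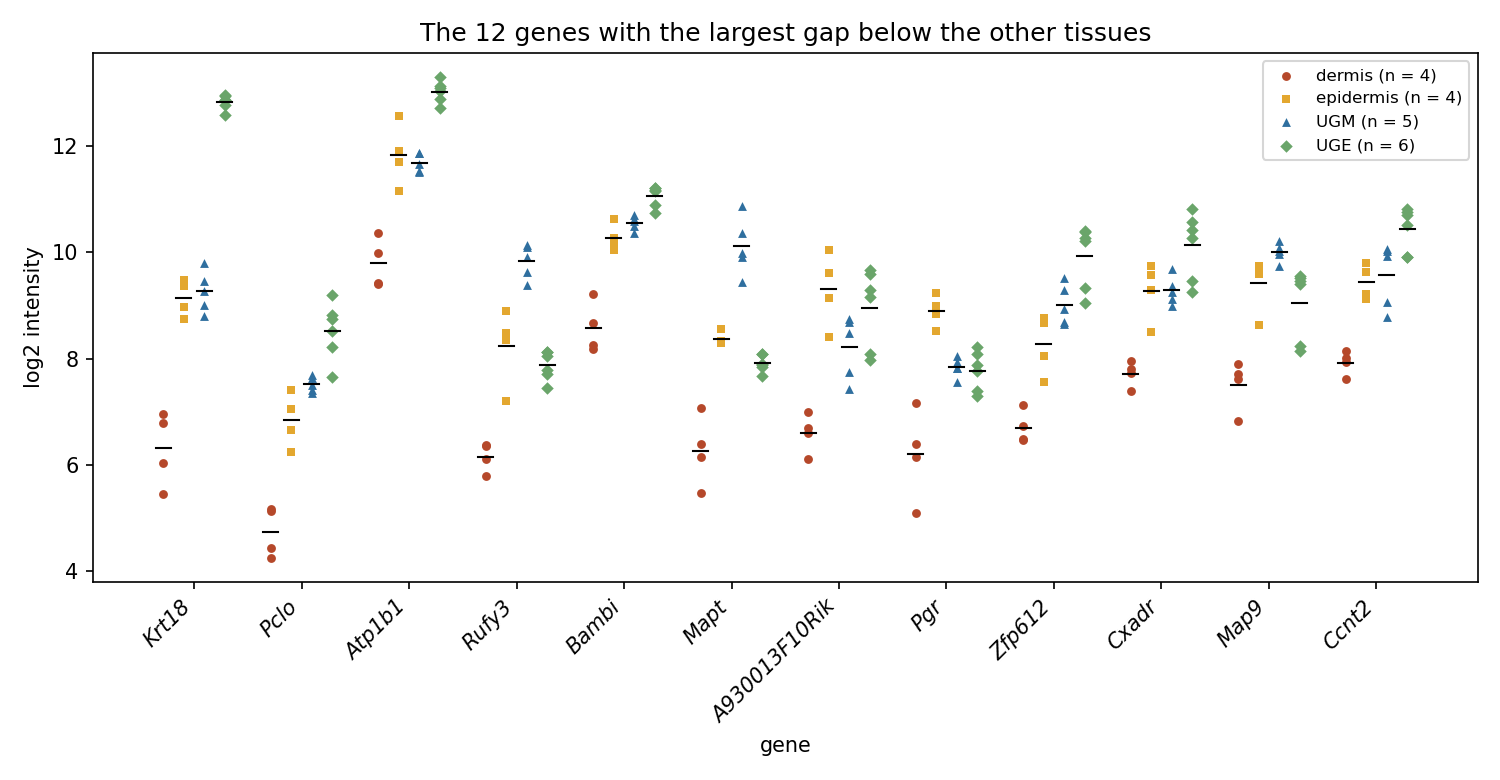
Log2 intensity of the 12 genes with the largest gap below the other tissues, in each sample (points, by tissue), with tissue means as black bars. The genes were chosen among those without overlap, so all dermis points lie below those of the other 3 tissues. Dermis values run from 4.25 for Pclo to 10.37 for Atp1b1, and Pgr spreads from 5.09 to 7.17 in dermis.

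Other probe sets of the genes lowest in dermis seldom passed the same test. Of the 12 genes 9 have other tested probe sets, and 1 of these 26, a set of Atp1b1, passed. Some of them, such as those of Pclo (means of 4.00 and 4.35), lie below the lower quartile of the arrays, where a loss can hardly show. The 3 other sets of Mapt had gaps of -0.30, 0.68 and 0.83, the last 2 with adjusted p = 0.003391 and 0.0008829 in the limma fit. A set of Ccnt2 with a mean of 7.90 had a gap of -0.56. Of the 20 genes with the largest gap above, 10 have another probe set, and 9 of these 10 passed. The median SD among dermis samples was 0.37 for the genes lowest in dermis, 0.26 for those highest and 0.16 for all genes. Without dermis replicate 2, the sample with the lowest keratinocyte levels, 30 of the genes tested were lowest in dermis, and without dermis and epidermis replicates 1 together 61, against 47 with all samples. Whether epithelial material entered these values was not tested.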

How the data were processed

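RNA of 19 pools of embryonic tissue was hybridized to Affymetrix Mouse Genome 430 2.0 arrays. The deposited table holds 1 linear intensity per probe set and sample, already normalized between arrays by the authors. The submitters' processing notes name GCOS 1.4 and the study's methods describe both scaling in GCOS and PLIER, and which of these the table holds is not settled. Array medians ran from 76.17 to 81.59, so arrays were not rescaled. Arrays give no read depth, and their number limits the precision.

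Of 45101 probe sets, 64 controls and those never over 20 were left out, which left 41549. GEO's platform annotation gave 1 symbol to 34945 probe sets, several to 932 and none to 9160, and only those with 1 symbol were named (17360 genes, each represented by its probe set with the highest mean). The log2 values of the deposited intensities were fitted with limma 3.58.1 (R 4.3.3, lmFit and eBayes) in 1 model of the 4 tissues, without a block. P-values were adjusted by Benjamini-Hochberg over all probe sets tested, for each gene as the largest of 3 pairwise p-values. The difference from the mean of the other tissues had to exceed 1 with an adjusted p below 0.01 to be called. P-values measure the spread between these pools, which the labels do not tie to separate litters. The scripts were tested on simulated data.

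Same-numbered epidermis and dermis samples deviated together (r = 0.343, 0.108, 0.264 and 0.168 for replicates 1 to 4), a hint from the data that the numbers pair the skin layers. In each of the other tissue pairs r was positive for some numbers and negative for others. The largest r of all was that of UGE and UGM replicates 1, at 0.648. Samples of different numbers were not compared. Named are the 20 genes with the largest gap above and the 12 below, up to 4 called members of each of 32 gene lists, and cell type markers. The 20 and the 12 were taken from called genes whose dermis samples do not overlap any sample of the other tissues. Other genes were named after their values were seen. The members and lists were chosen with earlier results of these data known. Alternatives covered normalization, the filter, an offset of 50, the threshold, the fit, the block, the probe set rule, the methods' t-test and samples left out.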

Additional observations from a re-analysis of the deposited data

Results flagged for a closer look

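In 8 of the 111 named genes, 1 dermis sample lay far from the other 3 relative to the range of the group, and chance alone flags about 1 in 20 groups. In dermis replicate 4, Myh3 read 12.24 against 10.96 to 11, Fabp4 11.35 against 10.51 to 10.56, and Tgfb1 7.23 against 7.50 to 7.52. In dermis replicate 1, Ccn3 read 10.65 against 11.45 to 11.53, Csf2rb 9.03 against 9.43 to 9.49, and Col1a2 14.71 against 14.89 to 14.90. Emilin2 read 11.75 in dermis replicate 2 against 11.28 to 11.35, and Fzd4 9.20 in dermis replicate 3 against 9.36 to 9.40. Of these genes Col1a2 alone was not called highest in dermis.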

How the results depend on the processing

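Of 2981 values of the 83 called named genes under 36 alternatives, 2848 stayed past the threshold in the same direction and none turned, while 50 of the genes lost the call in at least 1 alternative, most often A930013F10Rik (18 alternatives), Col12a1 (17), Kit (10) and Thy1 (9). Leaving out 1 replicate at a time gave 376 to 445 genes highest in dermis, 30 to 56 genes lowest in dermis, 1163 to 1279 genes above the mean of the other tissues and 527 to 626 genes below the mean of the other tissues, and the lowest count of 30 came without dermis replicate 2. The methods' t-test, with Benjamini-Hochberg adjustment at the threshold the methods give, called 166 genes highest and 2 lowest, and it was not run for the difference from the mean. Leaving epidermis out of the rule raised the counts to 703 and 351, and leaving UGE out instead gave 469 and 58. The cause of this difference was not tested. With 50 added before log2, which shrinks differences of low values, 25 genes were lowest and 377 below the mean. The mean of a gene's probe sets left 25 lowest genes, of which 23 were among the 47. The cause of the changes with the t-test and with the probe set mean was not tested. With the skin pairs as a block 432 genes were highest, 46 lowest, 1236 above and 588 below the mean. With the replicate block over all 4 groups these counts were 410, 37, 1213 and 563. Under either block Kit, Thy1, Col12a1, Map9 and A930013F10Rik lost their calls in at least 1 fit, and the calls of the other named genes did not change. Leaving out dermis and epidermis replicates 1 together was chosen after seeing the data and gave 450, 61, 1289 and 659. Levels at the lower quartile of the arrays limit what can be said of En1, Pclo, Prox1 and Adipoq in dermis. For Zic1, Mcpt4, En1, Tceal7, Myh8, Mymx, Ms4a2, Cd163, Csf2rb, Rgs18, Col24a1, Ptgfr and Ebf2 the next tissue had samples at or below it, so the sizes of their gaps are not secure.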

Other observations

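Epidermis replicate 1 held the highest epidermis values of the adipocyte genes Adipoq (9.63) and Fabp4 (9.31), and the highest medians of mast cell genes (7.76) and fibroblast markers (8.93) among the 4 epidermis samples. Cd36, another adipocyte gene, was lowest in that sample (5.36) among the epidermis samples. Adipoq was at most 4.68 in dermis, and its source in epidermis replicate 1 was not tested.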
